A study of Mus musculus with 12 samples.

Results

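The 10 genes described here encode enzymes and binding proteins that limit oxidative damage: Cat, Sod1, Sod2, Mt1, Mt2, Txn1, Gpx1, Prdx1, Prdx2 and Prdx5. They were chosen by name, and every non-control probe whose accession led to one of these symbols was taken, which gave 12 of the 41174 non-control probes on the array. Prdx2 had 3 probes and each other gene 1. Their RNA was measured in laser-captured pancreatic islets of 6 NOD mice, which develop autoimmune diabetes, and of 6 NOD.B10 mice, a congenic control strain on the NOD background with another MHC haplotype that stays free of the disease. All mice were female and 12 weeks old, no treatment is given in the labels for either strain, and the strains differ by genotype as well as by disease. Each mouse had its own 2-colour array, on which its amplified islet RNA was labelled with Cy5 and universal mouse reference RNA, the same for all, with Cy3, without dye swaps. A captured islet section holds endocrine cells and any cells that have entered or surround them, and in such bulk RNA fewer cells of a type and less RNA per cell cannot be told apart.

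Superoxide formed by respiration or by inflammatory cells is turned into hydrogen peroxide by superoxide dismutases, and catalase, glutathione peroxidases and peroxiredoxins remove the peroxide. Thioredoxin reduces oxidised protein thiols and recycles peroxiredoxins. Metallothioneins are small cysteine-rich proteins that bind zinc and copper and scavenge radicals, and their genes are switched on by metals through the factor MTF1 and by glucocorticoids and inflammatory cytokines. Pancreatic beta cells are known for low activity of catalase and glutathione peroxidase and for a high zinc content.

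Mt1 (chr8:94178883-94180327, GRCm38.p6) and Mt2 (chr8:94172618-94173567) are neighbours on the same strand, and their promoters are shown because both genes had lower ratios in NOD. The windows are those of RefSeq (GRCm38.p6), hold 300 bases from 250 before to 50 after the start given there, and are written 5′ to 3′ on the + strand, which is that of both genes. In Mt1 the start used lies inside the annotated gene. Capitals mark matches to the metal response element core that MTF1 binds, searched as TGCACNC or TGCGCNC on both strands.
Mt1 promoter, chr8:94178839-94179138: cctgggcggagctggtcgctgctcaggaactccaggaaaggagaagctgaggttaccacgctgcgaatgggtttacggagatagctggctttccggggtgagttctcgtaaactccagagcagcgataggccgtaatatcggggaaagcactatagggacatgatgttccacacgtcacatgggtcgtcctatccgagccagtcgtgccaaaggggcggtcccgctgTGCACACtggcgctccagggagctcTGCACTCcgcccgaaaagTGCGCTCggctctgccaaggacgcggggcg
Mt2 promoter, chr8:94172368-94172667: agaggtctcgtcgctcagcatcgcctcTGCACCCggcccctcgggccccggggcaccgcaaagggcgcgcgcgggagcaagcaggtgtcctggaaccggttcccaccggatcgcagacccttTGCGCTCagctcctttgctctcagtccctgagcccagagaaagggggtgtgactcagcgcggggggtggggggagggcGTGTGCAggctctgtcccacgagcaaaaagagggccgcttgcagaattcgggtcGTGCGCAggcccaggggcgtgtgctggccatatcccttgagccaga
The Mt1 window holds 3 matches and the Mt2 window 4, the windows of the 8 other members 0. Of 32544 RefSeq windows of the same length, 25.9% hold at least 1 match and 1.99% at least 3. The antioxidant response element bound by NRF2, searched as TGACNNNGC on both strands, had 1 match each in the windows of Mt2, Sod1 and Prdx1, against 12.4% of all windows with a match, and none overlapped a metal response element match. A match of letters is a description of sequence, and binding was not measured.

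Array brightness differed between the strains. The share of spots whose Cy5 signal was well above background was 14.0 ± 2.55% on NOD arrays and 6.21 ± 1.37% on NOD.B10 arrays (SD, n = 6 each; exact 2-sided permutation p = 0.00216, the smallest that 6 against 6 can give), while that of Cy3 was 50.4 ± 1.94% on NOD arrays and 50.1 ± 2.27% on NOD.B10 arrays (exact permutation p = 0.781). For the 1083 probes that passed this mark in Cy5 on each of the 12 arrays, the signal before scaling was a median 3.14-fold higher in NOD. Slide 1 held only NOD mice 1 and 2 and slide 4 only NOD.B10 mice 2 and 3, while slides 2 and 3 held 2 mice of each strain. The arrays of slide 4 were also scanned on another day than the 10 others, so that scan day held NOD.B10 alone. Without them the calls of Mt1 (-1.38), Mt2 (-1.73), Txn1 (0.58) and Sod2 (-0.63) were kept, with limma adjusted p of 0.000444, 0.00147, 0.00923 and 0.0176, and that of Prdx2 was lost (-0.31, adjusted p = 0.143). The members' values are therefore given on 2 scales. The ratio is log2 of Cy5 over Cy3 after background correction and loess normalisation within the array, and it places a gene relative to the array. The net signal is the median spot signal minus local background in scanner units, unscaled, and it follows array brightness.

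Of the 12 probes, 8 probes of 8 genes had Cy5 well above background on at least 4 of 12 arrays and were tested with limma among 5347 probes. In the ratio, Txn1 was higher in NOD, and Cat, Sod2, Mt1, Mt2, Gpx1 and Prdx2 were lower at a Benjamini-Hochberg adjusted p under 0.05, while Sod1 did not pass. That is 1 member higher, where 20% of all tested probes were called higher, and 6 lower, where 16.4% were called lower. Cat and Gpx1 had Cy5 that cleared background on 0 NOD.B10 arrays and entered the test through NOD alone, so no fold or direction is read from their calls. Of tested probes of that kind, 30.2% were called higher and 8.07% lower. The 4 other lower calls were of members read above background in both strains. The shares called moved with how bright Cy5 was beside Cy3. Of the tested probes whose mean net Cy5 was under 1% of net Cy3, 68.6% were called lower and 0.32% higher, and 5 members lie in that class, of which 4 were called lower (Cat, Sod2, Mt1 and Gpx1, with Sod1 not called). Of the probes at 1 to 5%, 6.37% were called lower and 17.6% higher, and Mt2, Prdx2 and Txn1 lie there. The 6 ratios of NOD lay wholly below those of NOD.B10 for 3 members (Cat, Sod2 and Mt1), where 6.7% of all tested probes did so. Of these, Cat had no NOD.B10 array above background, and no direction is read from it. The ratios of NOD lay wholly above for 1 member (Txn1), where 9.89% of all tested probes did so.

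**Figure D1:**
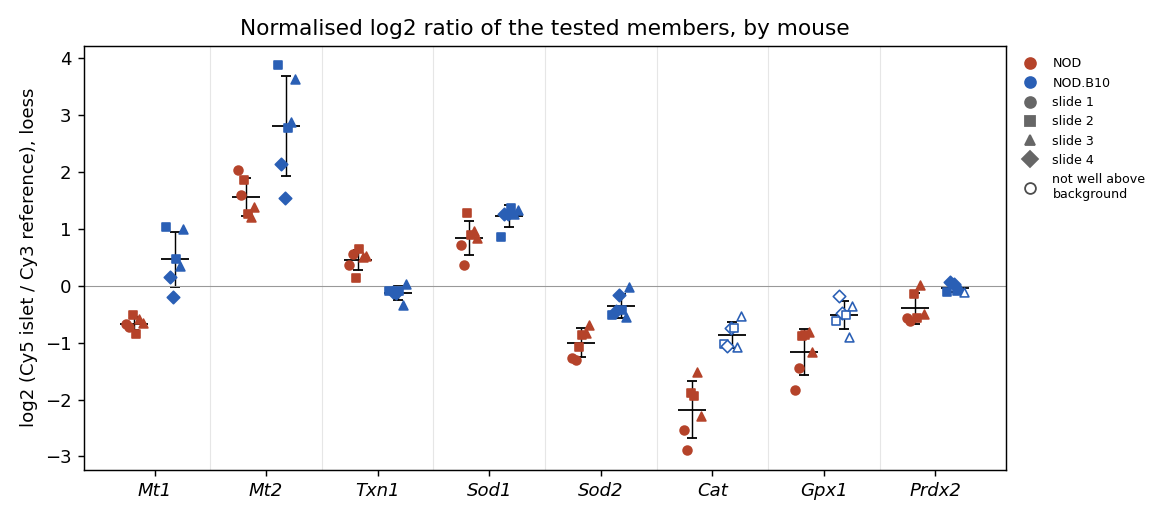
Normalised log2 ratio of islet (Cy5) to reference (Cy3) signal for the 8 tested members, 1 point per mouse, NOD left of NOD.B10, with the mean and SD of each strain (n = 6) as bars, the slide as the point's shape, and open points where Cy5 was not well above background. The NOD points of Mt1, Sod2 and Cat lie below all NOD.B10 points and those of Txn1 above, and the NOD.B10 points of Cat and Gpx1 are all open.

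The metallothionein genes were lower in NOD relative to the array. Mt1, which encodes a metallothionein made in most tissues, had a lowest, median and highest log2 ratio of -0.84, -0.67 and -0.51 in NOD, against -0.20, 0.41 and 1.04 in NOD.B10. The NOD mice were close to each other and below every NOD.B10 mouse, and NOD.B10 mice 1 and 6 were the highest. The fitted difference of Mt1 was -1.14 ± 0.19 on the log2 scale (SE, n = 6 per strain, 95% interval -1.54 to -0.73, limma adjusted p = 0.000693), which is 2.20-fold higher in NOD.B10. Mt1 has 10 spots on each array, and the SD of their log2 ratios had a median of 0.132 over the arrays. The SD over mice was 0.113 in NOD and 0.482 in NOD.B10.

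Mt2, the other metallothionein made in most tissues, had log2 ratios of 1.22, 1.5 and 2.04 in NOD (lowest, median and highest), against 1.54, 2.83 and 3.88 in NOD.B10. The strains overlapped, since NOD.B10 mouse 3 lay within the NOD range, while NOD.B10 mice 1 and 6 were again the highest. The difference was -1.25 ± 0.34 (SE, 95% interval -1.99 to -0.50, limma adjusted p = 0.0131), or 2.37-fold higher in NOD.B10. The order of the NOD.B10 mice was similar for both genes, with a Pearson r of 0.98 (Spearman rho 0.94) over the 6 mice and 0.96 without mice 1 and 3, the farthest from the median of Mt1. In NOD the same r was 0.33 (rho 0.09), and -0.57 without mice 3 and 4, and whether the strains differ in this was not tested. The probes share arrays, and how far either one also detects the related transcript was not tested.

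**Figure D2:**
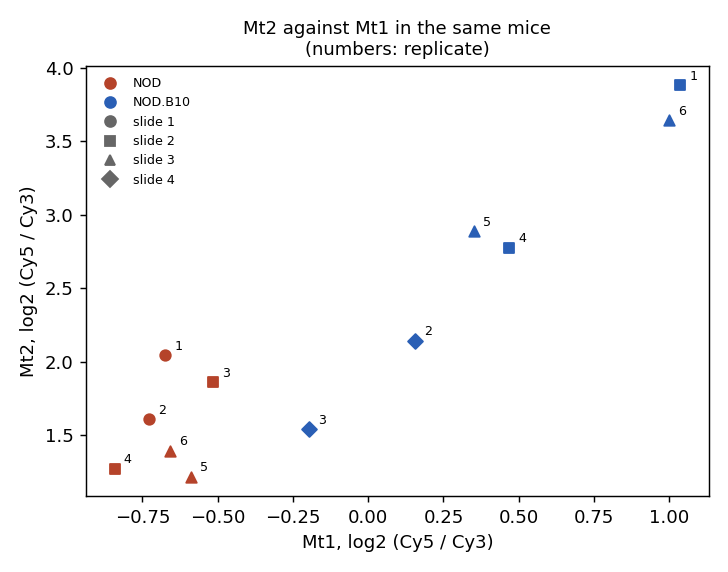
Log2 ratio of Mt2 (vertical axis) against that of Mt1 (horizontal axis) on the same arrays, 1 point per mouse, coloured by strain, shaped by slide and numbered by replicate. NOD.B10 mice run from mouse 3 at the lower left to mice 1 and 6 at the upper right, and NOD mice form a group with Mt1 between -0.84 and -0.51.

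The unscaled signals of the metallothioneins overlapped between the strains. Net Cy5 of Mt1 was 26.2, 47.5 and 99.9 in NOD (lowest, median and highest), against 13.9, 37.2 and 61.8 in NOD.B10. Net Cy5 of Mt2 was 169, 337.5 and 781 in NOD, against 101.5, 206 and 360 in NOD.B10. NOD mice 1 and 2, both on slide 1, were the highest for either gene, and NOD.B10 mouse 3 the lowest. The mean signals of Mt1 and Mt2 were 1.45-fold and 1.93-fold higher in NOD, on arrays whose bright probes were a median 3.14-fold higher. In log2 units Mt1 lay 1.13 below and Mt2 0.78 below the median difference of the 1083 bright probes, at percentiles 13.8 and 22.9 among them. In a test of net Cy5 scaled on such probes, chosen after the data were seen, Mt1 was -1.23 (limma adjusted p = 0.00497) and Mt2 -0.89 (adjusted p = 0.0186), where 23.6% of 1082 probes were called lower and 21.5% higher. The net ratio of probes bright in both channels also called both lower (-1.41, adjusted p = 0.00149, and -1.08, adjusted p = 0.00771), where 35% of 1078 probes were called lower and 16.4% higher. The median difference of all probes in that net ratio was -0.36, and relative to it Mt1 stood at -1.05 and Mt2 at -0.72. Both genes were thus lower in NOD relative to the median of the bright probes of the same arrays. With slide as a fixed term the ratio differences were -1.36 for Mt1 (adjusted p = 0.00158) and -1.86 for Mt2 (adjusted p = 0.00269), where 8.02% of tested probes were called lower. Within slide 2, with 2 mice of each strain, Mt1 differed by -1.43 and Mt2 by -1.76. Within slide 3 Mt1 differed by -1.30 and Mt2 by -1.96, and no adjusted p was under 0.05 in either slide. Median centring in place of loess turned both directions, to 0.32 and 0.80, without passing. Relative to the median of all tested probes, 0.42 there, Mt1 stood at -0.10 and Mt2 at 0.38.

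**Figure D3:**
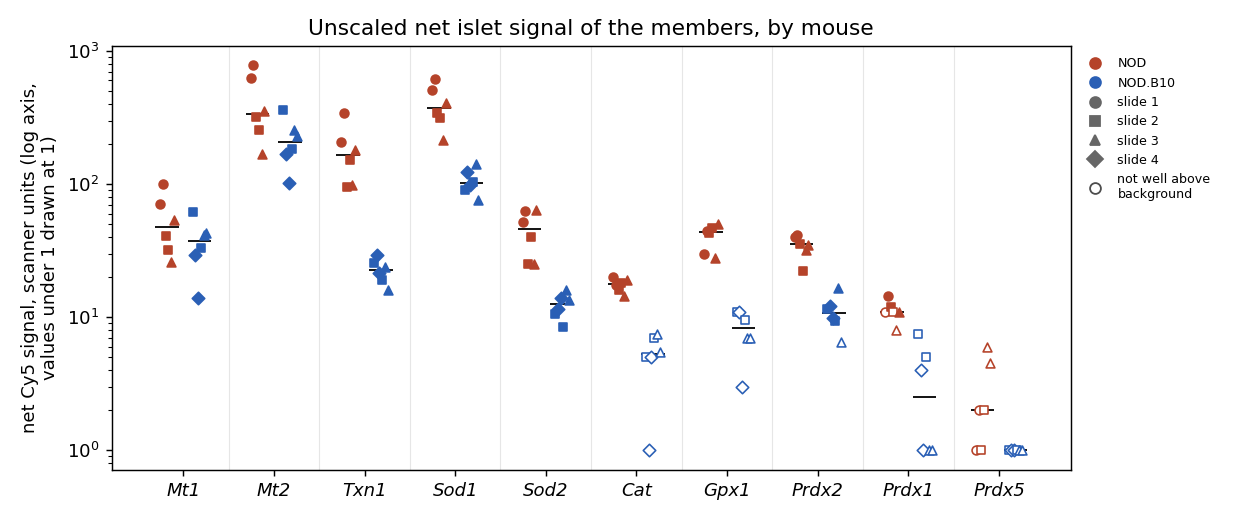
Unscaled net Cy5 signal (scanner units, log axis, values under 1 drawn at 1) of the brightest probe of each of the 10 members, 1 point per mouse, NOD left of NOD.B10, with a bar at the median and open points where Cy5 was not well above background. Mt1, Mt2 and Prdx5 overlap between the strains, and the NOD points of the other members lie above all NOD.B10 points.

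Txn1 (chr4:57943373-57956411) was the member called higher. It encodes cytosolic thioredoxin, the protein disulfide reductase that feeds peroxiredoxins. Its log2 ratio was 0.14, 0.52 and 0.64 in NOD (lowest, median and highest), against -0.34, -0.10 and 0.04 in NOD.B10. Every NOD mouse lay above every NOD.B10 mouse, NOD mouse 3 being the lowest of its strain and NOD.B10 mouse 6 the highest of the other. The difference was 0.58 ± 0.10 (SE, n = 6 per strain, 95% interval 0.35 to 0.80, limma adjusted p = 0.00113), or 1.49-fold. Net Cy5 of Txn1 was 95, 165 and 339 in NOD, against 16, 22.8 and 29.5 in NOD.B10, again without overlap. Its mean signal was 7.90-fold higher in NOD, and its log2 difference lay 1.22 above the median of the bright probes, at percentile 87.6. Txn1 was called higher with slide as a fixed term too (0.58, adjusted p = 0.0214), where 9.5% of tested probes were. It stood at 0.48 within slide 2 and 0.67 within slide 3, without passing.

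Of the superoxide dismutases, Sod1 (chr16:90220762-90226333) encodes the cytosolic copper-zinc enzyme. Its log2 ratio was 0.37, 0.88 and 1.28 in NOD (lowest, median and highest), against 0.86, 1.27 and 1.37 in NOD.B10. The strains overlapped, and NOD.B10 mouse 1 stood apart from the 5 others of its strain. The difference of -0.38 ± 0.14 (SE, 95% interval -0.69 to -0.07) had an adjusted p of 0.0546 in limma. Net Cy5 of Sod1 was 216, 373 and 614 in NOD and 76, 101 and 142.5 in NOD.B10, without overlap, and its mean was 3.77-fold higher in NOD, 0.22 above the bright probes' median in log2 units.

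Sod2 (chr17:13007839-13018119) encodes the manganese enzyme of mitochondria, which inflammatory cytokines are known to induce. Its log2 ratio was -1.31, -0.96 and -0.68 in NOD, against -0.55, -0.43 and -0.01 in NOD.B10. No values overlapped, and NOD mice 1 and 2, which shared slide 1, were the lowest. The difference was -0.65 ± 0.14 (SE, limma adjusted p = 0.00292). Net Cy5 of Sod2 was 25, 45.8 and 64 in NOD, against 8.5, 12.5 and 16 in NOD.B10, the opposite order and also without overlap. Its mean was 3.62-fold higher in NOD, 0.13 above the median of the bright probes. The lower ratio call was lost when the net ratio of probes bright in both channels was tested (-0.32, adjusted p = 0.349) and with the scanner's processed ratio (-0.31, adjusted p = 0.391). It was kept with slide in the model as a fixed term (-0.49, adjusted p = 0.0391).

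The peroxide-removing enzymes catalase and glutathione peroxidase were near background in NOD.B10. Cat (chr2:103453904-103485153) encodes catalase of peroxisomes. Its net Cy5 signal was 14.5, 17.8 and 20 in NOD (lowest, median and highest), against 0, 5.25 and 7.5 in NOD.B10, while net Cy3 ranged from 8929 to 16533 over all arrays. It was well above background on 6 NOD arrays and 0 NOD.B10 arrays. The ratio ran the other way, with log2 values of -2.89, -2.11 and -1.51 in NOD and -1.08, -0.89 and -0.53 in NOD.B10, without overlap. Mean net Cy5 was 0.0823% of net Cy3. The ratio passed the test (limma adjusted p = 0.00052), but its value in NOD.B10 rests on a signal that is only a bound, and no difference is given.

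Gpx1 (chr9:108339080-108340342) encodes the main cytosolic glutathione peroxidase, a selenoprotein. Its net Cy5 signal was 28, 43.8 and 50 in NOD and 3, 8.25 and 11 in NOD.B10, and it too was well above background on 6 NOD arrays and 0 NOD.B10 arrays. Its log2 ratio was -1.83, -1.02 and -0.81 in NOD and -0.90, -0.50 and -0.18 in NOD.B10, with overlap. The 2 lowest ratios were those of NOD mice 1 and 2. The ratio passed the test (limma adjusted p = 0.0139), with no difference given for the same reason as Cat. Net Cy3 of Gpx1 was 2836 and 3763 in NOD.B10 mice 2 and 3 and 3856 in NOD mouse 2, and between 8267 and 10128 on the 9 other arrays. The common reference thus gave a low signal at this probe on 3 arrays of both strains. The same 3 arrays also had the lowest net Cy3 for Cat, Prdx1, Prdx2 and Prdx5. For Prdx1 it was 713.5 in NOD mouse 2, and 594.5 and 590 in NOD.B10 mice 2 and 3. For Txn1 it was not low there, with the highest values in NOD.B10 mice 2 and 3 (11372.5 and 11847.5). The Gpx1 ratio no longer passed with slide in the model as a fixed term (adjusted p = 0.183) or without slide 4 (adjusted p = 0.07).

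For Cat and Gpx1 the net signal was higher and the ratio lower in the same NOD mice. Of the 876 probes called lower over the whole array, 817 had a higher mean net Cy5 in NOD and 139, Cat and Gpx1 among them, did not exceed background clearly on any array of NOD.B10. Whether the low ratios reflect the islets or the Cy5 reading beside a bright Cy3 spot was not tested.

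Of the 3 member peroxiredoxins, thiol peroxidases that thioredoxin recycles, Prdx2 was tested. It lies at chr8:84969622-84974811, on the chromosome of the metallothioneins, and encodes a cytosolic enzyme that is abundant in red blood cells. The log2 ratio of its brightest probe was -0.62, -0.53 and 0.02 in NOD and -0.11, -0.07 and 0.06 in NOD.B10. NOD mice 3 and 5 lay near or within the NOD.B10 range, and the 4 others lay below it. The difference was -0.35 ± 0.12 (SE, 95% interval -0.61 to -0.09, limma adjusted p = 0.0368). The call was lost in 10 of the 12 fits that left out a mouse, with adjusted p up to 0.078, and with slide in the model as a fixed term (-0.21, adjusted p = 0.349). Net Cy5 was 22.15, 35.3 and 41.6 in NOD, against 6.5, 10.7 and 16.5 in NOD.B10, with a mean 3.13-fold higher in NOD. This probe also has 10 spots an array, whose log2 ratios had a median SD of 0.141, beside an SD over mice of 0.269 in NOD and 0.0727 in NOD.B10. Both other Prdx2 probes were well above background in Cy5 on 0 arrays, with net Cy5 from -7.5 to 5.5.

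Prdx1 and Prdx5 were not tested. Prdx1 (chr4:116685599-116700000), a cytosolic peroxiredoxin of most cells, was well above background on 3 NOD arrays and 0 NOD.B10 arrays. Its net Cy5 was 8, 11 and 14.5 in NOD, against -6, 2.5 and 7.5 in NOD.B10. The probe of Prdx5 (chr19:6906697-6910106), an enzyme of mitochondria, peroxisomes and cytosol, was so on 0 arrays, with net Cy5 of -1.5, 2 and 6 in NOD and -8, -2 and 1 in NOD.B10. Its net Cy3 was 50 to 121, so this probe also read little from the reference RNA, and no level can be given for either strain.

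No member was called in the reference channel alone. Log2 Cy3 of the 8 tested members differed between NOD and NOD.B10 by -0.05 to 0.32, with limma adjusted p from 0.641 to 1.00. Over all tested probes limma called 0 in Cy3, with 149 higher and 124 lower at an unadjusted p under 0.05.

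Within the strains the members varied together to different degrees. After each strain's mean was taken off, the ratios of Mt1 and Mt2 had a Pearson r of 0.92 over the 12 arrays, the highest of all member pairs. Taken by strain, this r was 0.98 in NOD.B10 but 0.33 in NOD. Cat with Sod1 stood at 0.73 and with Gpx1 at 0.72, while Mt1 with Cat stood at 0.14 and Mt2 with Cat at -0.13. Cat and Gpx1 cleared background in Cy5 on 0 NOD.B10 arrays, so no shared variation is read from their pairs. All these correlations describe mice that share arrays and brightness. By the correlation of ratios over the 12 arrays, strain difference included, Mt1 and Mt2 were each the gene most like the other (0.94). The gene most like Txn1 was C3, the central complement component (0.96), whose own ratio difference was 1.77. The gene most like Cat was Serpinc1, the liver-made antithrombin (0.997). Serpinc1 averaged 13 units of net Cy5 in NOD and 8.33 units in NOD.B10, 0.0569% of Cy3, so it lies at the same low end of the Cy5 to Cy3 range. The most alike were Acaa2 for Sod2 (0.96), Foxh1 for Gpx1 (0.96), Nat8f1 for Prdx2 (0.95) and Ldah for Sod1 (0.93). Acaa2, Nat8f1 and Ldah also had net Cy5 under 1% of net Cy3. Foxh1 averaged 6.58 units of net Cy5 in NOD and 10.6 units in NOD.B10.

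Relatives of the members were mostly dim or not called. Of 10 other peroxiredoxin and thioredoxin genes, 4 were tested, 0 were called higher and 2 lower. These were Prdx6, a peroxiredoxin that uses glutathione (log2 -0.70 ± 0.20, SE, limma adjusted p = 0.0146), and Txn2, the mitochondrial thioredoxin, from which no direction is read, since its Cy5 signal cleared background on 0 NOD.B10 arrays. Prdx3, the mitochondrial peroxiredoxin, was not called (-0.24 ± 0.13, adjusted p = 0.172). Of 22 genes of the glutathione system, 8 were tested, 0 were higher and 2 lower. Gstm1, a glutathione transferase, had a log2 ratio difference of -2.29 ± 0.61 (adjusted p = 0.0106), with a mean net signal of 179 in NOD and 201 in NOD.B10. Mgst1, a microsomal transferase, was called lower too (-0.86 ± 0.24). Of 5 further superoxide dismutase and metallothionein genes, Ccs, the copper chaperone of Sod1, was the 1 tested and was lower (-0.57 ± 0.17, adjusted p = 0.0189), while Mt3, Mt4, Sod3 and Mtf1 were not tested.

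Of 17 regulators and targets of NRF2, the factor that induces antioxidant genes, 8 were tested, 1 was called higher and 2 lower. The higher one was Fth1, the heavy chain of the iron store ferritin, with log2 ratios of 2.52 to 3.41 in NOD and 1.55 to 2.41 in NOD.B10. It did not overlap between the strains and differed by 0.89 ± 0.18 (limma adjusted p = 0.00242). Fth1 averaged 1824 units of net Cy5 in NOD and 190 units in NOD.B10. The lower ones were Park7, a redox-sensitive chaperone (-0.46 ± 0.08), and Hmox2, the constitutive haem oxygenase (-0.38 ± 0.11). Park7 cleared background on 1 NOD.B10 array only, with a mean net Cy5 of 24.5 in NOD and 7.08 in NOD.B10, so its call rests on values near background there. Nfe2l2, which encodes NRF2 itself, differed by -0.12 ± 0.14 (adjusted p = 0.531), and its targets Nqo1 and Hmox1 were well above background on 0 arrays. Of 9 sources of superoxide and nitric oxide, 2 were tested and both were called higher, but both passed the filter through NOD alone. Of tested probes of that kind, 30.2% were called higher. Set against a floor in NOD.B10, normalised Cy5 of Rac2, the small GTPase of the leukocyte NADPH oxidase, was at least 2.89-fold higher in NOD. That of Ncf4, a cytosolic subunit of that oxidase, was at least 1.33-fold higher. These are lower bounds, because no NOD.B10 array read either gene well above background. The ratio calls (limma adjusted p = 0.00045 for Rac2 and 0.00266 for Ncf4) are on another scale, and no direction is read from them. Cybb and Nos2 were not tested. Of 7 zinc transporters, Slc39a7 alone was tested and was not called (-0.08 ± 0.17). The median log2 difference was -0.32 over the 4 tested peroxiredoxin and thioredoxin relatives, -0.29 over the 8 of the glutathione system, and -0.19 over the 8 of the NRF2 list, against 0.02 over all tested probes. Of the relatives called lower, Prdx6, Txn2, Gstm1, Mgst1 and Park7 lay in the class with net Cy5 under 1% of net Cy3, where 68.6% of all tested probes were called lower.

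Markers of several cell types moved with the strain, and their part in the members' differences was not tested. All 11 tested of 14 leukocyte markers were called higher in NOD, where 20% of all tested probes were. Of the 11, 7 were above background on no NOD.B10 array and entered the test through NOD alone, so no direction is read from their calls. Of tested probes of that kind, 30.2% were called higher. The summed net Cy5 of the 11 was 1586 to 12429 in NOD and 60.1 to 147.5 in NOD.B10, although Cd3e and Cd79a were well above background on 0 arrays. The leading leukocyte markers were Lyz2, Ptprc, Srgn and Ctss, genes of myeloid cells or of leukocytes at large. Of these, Ptprc was above background on 0 NOD.B10 arrays. Of 10 beta cell markers 7 were tested and 3 were lower (Ins2, Slc2a2 and Ins1), with summed net Cy5 of 4279 to 33188 in NOD and 12172 to 30876 in NOD.B10. Ins1 and Ins2 had a mean net Cy5 of at least 5% of net Cy3, where 1.59% of tested probes were called lower and 46.6% higher. Slc2a2 lay at 1 to 5%, where 6.37% were called lower. Of 12 acinar markers 7 were tested and 5 were lower, led by Cel, Amy1, Cpb1 and Sycn. The sums of this list were 295 to 3863 in NOD and 241.5 to 10927 in NOD.B10. All 5 called genes had a mean net Cy5 under 1% of net Cy3. In that class 68.6% of all tested probes were called lower. Unlike 817 of the 876 lower calls over the whole array, all 5 genes were also dimmer in NOD before scaling. Their mean net Cy5, NOD first, stood at 167 against 885 (Amy1), 96.1 against 387.5 (Cpb1) and 240 against 348 (Sycn). Pnlip stood at 64.25 against 238.5 and Cel at 16.8 against 35.6. The cause was not tested. Of 7 other endocrine markers 6 were tested, and Chga and Gcg were lower in the ratio. Both lay in the same class as Ins1 and Ins2, with net Cy5 of at least 5% of net Cy3. Mean net Cy5 of Gcg was 28080 in NOD and 12412 in NOD.B10, and that of Chga 3495 and 3401.5. The sums of this list were 28250 to 42476 in NOD and 14150 to 32121 in NOD.B10. Of 7 endothelial markers 2 were tested (Plvap and Kdr) and 0 were called. Of 7 mesenchymal markers all were tested, with Dcn higher and Col1a1 lower. Col1a1 too had a mean net Cy5 under 1% of net Cy3. The sums of leukocyte and of mesenchymal markers (651 to 2673 in NOD and 103 to 373 in NOD.B10) did not overlap between the strains, and those of the other lists did. All these sums are unscaled and follow array brightness, which was a median 3.14-fold higher in NOD for bright probes. In the ratio the 7 mesenchymal markers had a median log2 difference of 0.06, against 0.02 over all tested probes. Of the genes that define the labelled tissue, Ins1, Ins2, Gcg and Sst were well above background on all 12 arrays, and Pdx1, Mafa and Ucn3 on 0.

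**Figure D4:**
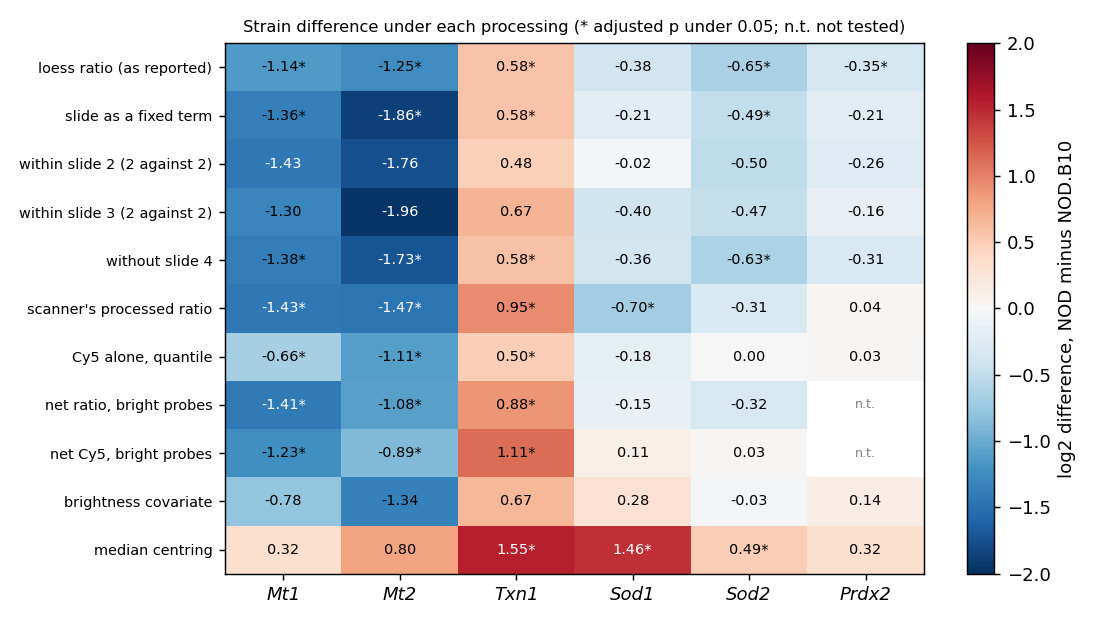
Log2 difference, NOD minus NOD.B10, of the 6 tested members read above background in both strains (columns) under 11 ways of processing (down the page), blue for lower and red for higher in NOD, with an asterisk where the adjusted p was under 0.05. Mt1 and Mt2 are blue in all but median centring, Txn1 is red in all, and the signs of Prdx2, Sod1 and Sod2 change with the processing.

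The members thus fell into groups by how they kept their sign, taken from 0, over these ways of processing. The median of all probes was not at 0 in each. It was 0.42 with median centring, 0.55 with the scanner's processed ratio and -0.36 with the net ratio. Median centring called 2568 of 5347 probes higher and 1 lower. Relative to the median, Prdx2 was lower in every way it was tested in except with the brightness covariate (0.17). Txn1 was higher in NOD in all 11, from 0.48 to 1.55, and passed in 8. Mt1 and Mt2 were lower in 10 and passed in 7. Sod1 was called lower with the scanner's processed ratio (-0.70, limma adjusted p = 0.0367) and higher with median centring (1.46, adjusted p = 7.77e-05). Sod2 was called lower in 3 of the 11 and higher with median centring (0.49, adjusted p = 0.0273), 0.06 above the median of all probes there, and it stood at 0.03 (adjusted p = 0.929) by net Cy5 scaled on bright probes. The share of spots well above background, entered as a covariate, took away each call (limma adjusted p from 0.576 for Txn1 to 0.984 for Sod2). The fitted differences were then -1.34 ± 0.83 for Mt2, -0.78 ± 0.44 for Mt1 and 0.67 ± 0.24 for Txn1 (SE), beside -0.03 ± 0.26 for Sod2. That share ran from 10.7 to 17.3% in NOD and from 3.96 to 7.88% in NOD.B10, without overlap, so the covariate and the strain cannot be told apart.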

How the data were processed

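The islet RNA of 6 NOD and 6 NOD.B10 mice was hybridised on 12 2-colour Agilent arrays, and a GEO sample is 1 array of 1 mouse. The deposited scanner files give, for each spot and channel, intensity values as the median signal and the median local background. Per the file headers, Feature Extraction 10.5.1.1 read them and also wrote processed intensity values, which are background-subtracted, detrended and dye-normalised. Quality marks of 0 or 1 for signal well above background, outliers and saturation come from the same software. The deposited series table gives log2 values that equalled log2 of processed Cy5 over processed Cy3 for 100% of 40929 compared probes on every array (within 0.001), with no further centring and medians of -0.062 to -0.285 per array. The labels do not state that scale. An array held 45018 spots, with 1639 controls among them and 0 saturated. There are no counts behind array values, so their precision is limited by the number of mice and by how far signals exceed background.

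Background correction by normexp (offset 50) and loess normalisation within arrays were run in limma 3.58.1 under R 4.3.3, with weight 0 for control spots in loess. Outlier spots were left out where another spot of the probe remained, and spots of a probe were averaged. Probe accessions were matched to symbols and coordinates of RefSeq's GRCm38.p6 annotation, which named 24375 probes (17016 symbols). Coordinates of the array design were not used. Probes entered the test if at least 4 of 12 arrays marked them well above background in Cy5. Strains were compared with lmFit and eBayes as NOD minus NOD.B10, with Benjamini-Hochberg adjustment over all tested probes and a threshold of 0.05, and the steps were tested on simulated data. Single values per array were compared with exact 2-sided permutation tests. Where 0 arrays of a strain read a probe well above background, its floor there was the 10th percentile of such normalised Cy5 signals on the array. No bound is given where it came below 1-fold, as for Cat and Gpx1. Nothing in the labels pairs the mice.

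The members and the lists of related and marker genes were chosen with earlier results of these data known. All members are named. From each list up to 4 called genes are named by smallest p, or up to 2 where none was called. For each tested member the gene of highest Pearson correlation over the 12 arrays is named. The alternatives were median centring, the scanner's processed ratio, the net ratio, Cy5 alone, other filters on dim probes, 1 probe per gene, slide as a fixed term, as a random block and within slides, no slide 4, array brightness as a covariate, array weights, a replicate block and leaving out each mouse. Net Cy5 scaled on bright probes was added after the data were seen.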

Additional observations from a re-analysis of the deposited data

Results flagged for a closer look

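In 20 groups of 6 arrays looked at, 3 had a lowest or highest array far from the other 5, where chance gives about 1 in 20. The Sod1 log2 ratio of NOD.B10 mouse 1 was 0.86, and the nearest of its strain was 1.26. The share of spots with Cy3 well above background was 46.7% on the array of NOD mouse 2, where the nearest was 50.2%, and 54.4% on that of NOD.B10 mouse 1, where the nearest was also 50.2%. Without NOD.B10 mouse 1 the Sod1 difference was -0.46 (limma adjusted p = 0.028).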

How the results depend on the processing

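Of all tested probes, 1071 were higher and 876 lower in NOD, and of the members 1 and 6. These counts were 2568 and 1, and 3 and 0 of the members, with median centring (3062 and 4 at an unadjusted p under 0.05), which moved the median of all probes to 0.42. There Cat stood at 0.15, Sod1 at 1.46, Sod2 at 0.49, Mt1 at 0.32, Mt2 at 0.80, Gpx1 at 0.32 and Prdx2 at 0.32. Relative to that median Mt1 was -0.10, Gpx1 -0.10, Prdx2 -0.10 and Cat -0.27, while Mt2 was 0.38, Sod2 0.06 and Sod1 1.04. The scanner's processed ratio (median 0.55) gave 410 lower and 3 members lower, with Cat at 0.0029, Gpx1 at 0.68 and Prdx2 at 0.041. Relative to its median these were -0.55, 0.13 and -0.51, Txn1 was 0.39, and Mt1 and Mt2 were -1.98 and -2.02. Cy5 alone gave 364 lower and 2 members lower, with Cat at 0.13, Sod2 at 0.00033, Gpx1 at 0.22 and Prdx2 at 0.028. The net ratio (median -0.36) gave 177 higher and 377 lower of 1078, and 2 of 5 members lower. Net Cy5 of bright probes, added after the data were seen, gave 233 and 255 of 1082 and 2 members lower, with Sod1 at 0.11 and Sod2 at 0.029. Without a filter 1674 were lower, and with at least 8 arrays well above background 432 were higher and 489 lower. Slide as a fixed term gave 508 and 429. Slide 2 alone gave 43 and 56 and slide 3 alone 2 and 1, with 0 members called in either direction. The brightness covariate gave 5 and 0 (222 and 177 at an unadjusted p under 0.05) and 0 members called, with Cat at 0.15, Sod1 at 0.28, Gpx1 at 0.35 and Prdx2 at 0.14. The cause of these moves was not tested. Leaving out each mouse gave 873 to 1219 higher and 713 to 1020 lower, and 1 to 1 member higher and 5 to 7 lower. Prdx2 lost its call in 10 of these 12 fits and Sod1 gained one in 2 (without NOD mouse 3, -0.47, and without NOD.B10 mouse 1, -0.46). With the replicate number as a block, 918 were higher and 739 lower, Mt1 was -1.14 (limma adjusted p = 0.00424) and Prdx2 lost its call (adjusted p = 0.0623), and no other member's call changed. The numbers do not pair the mice: deviations of same-numbered mice correlated at -0.15 to 0.23, and 1 number of 6 was its own best partner. Random slide blocks, array weights and 1 probe per gene moved no count by over 1.5 times. The share of spots well above background in Cy5, at most 17.3%, limits what can be tested.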
